A study of Mus musculus with 6 samples.

Results

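Tissue inhibitors of metalloproteinases (TIMPs) and matrix metalloproteinases (MMPs) were examined in the conditionally immortalised mouse podocyte line MPC5 after small interfering RNA (siRNA) knockdown of Mettl3. METTL3 is the enzyme that places N6-methyladenosine (m6A) in mRNA. The members were taken by gene name: the inhibitors Timp1, Timp2 and Timp3, and the proteases Mmp2, Mmp14 and Mmp19. Of these 6 genes, 5 had values among the 9120 genes listed, and Timp3 was not analysed here. For every gene listed, the higher of its group means was at least 0.501 FPKM. Genes below such a level may therefore be absent from the list, and absence does not show that a gene was not expressed. All 6 libraries came from cells held in 30 mM glucose: 3 received siRNA directed at Mettl3 and 3 received scrambled siRNA as control. Cells of both groups had been grown at 33 °C with interferon gamma and kept for 7 days at 37 °C without it, and siRNA was left on them for 6 h before the medium was changed. No normal-glucose library was analysed, so every level below is a level in high glucose. Expression is given as FPKM, fragments per kilobase of transcript and per mapped fragments of the library, as deposited. How deeply each library was sequenced is unknown.

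TIMPs are secreted proteins that bind the catalytic zinc site of MMPs, enzymes that cut extracellular matrix. MMP2 (gelatinase A, an enzyme that degrades type IV collagen and gelatin) is secreted as an inactive precursor. At the cell surface a TIMP2 molecule bound to one MMP14 (the membrane-anchored MT1-MMP) docks the precursor, which a neighbouring free MMP14 then cleaves, so TIMP2 takes part in activation as well as in inhibition. In the glomerulus these enzymes act on the basement membrane that podocytes help to build. By its title the study concerns METTL3-dependent m6A on TIMP2 mRNA, and the comparison asks how transcripts differ when Mettl3 is reduced.

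METTL3 methylates adenosines in a short sequence context of which GGACT is a common form. Its matches in the members are described here because the series is about m6A on one of them. Those in Timp2, Mmp2 and Timp1 are printed, and those in Mmp14 and Mmp19 are not. Methylation itself was not measured in these libraries. One principal transcript per gene was searched on its own strand (GENCODE M21, GRCm38). The Timp2 transcript is 3709 bases long in 5 exons, with 660 coding bases, and holds 3 GGACT matches: 1 in the coding sequence, 138 bases before the end of the stop codon, and 2 in the 3′ untranslated region, 527 and 1528 bases after it. The Mmp2 transcript (3078 bases, 13 exons) also holds 3, of which 2 are coding and 1 lies in the 3′ untranslated region, and that of Timp1 (883 bases, 6 exons) holds 1, in the coding sequence. The matches are printed 5′ to 3′ on the transcript strand, with GGACT in capitals:
Timp2 coding, chr11:118303825-118303845, minus strand: ctctggatGGACTgggtcaca
Timp2 untranslated, chr11:118303160-118303180, minus strand: tctggtatGGACTttcaggac
Timp2 untranslated, chr11:118302159-118302179, minus strand: acggttaaGGACTccccctca
Mmp2 coding, chr8:92832791-92832811, plus strand: gcaaggatGGACTcctggcac
Mmp2 coding, chr8:92836091-92836111, plus strand: accaccgaGGACTatgaccgg
Mmp2 untranslated, chr8:92853197-92853217, plus strand: tgcccaaaGGACTcgggttgt
Timp1 coding, chrX:20874546-20874566, plus strand: ggctctgaGGACTaccagagc

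All 3 Timp2 matches lie in its last exon, as do the Timp1 match, the untranslated Mmp2 match and some Mmp14 matches. Mmp14 and Timp1 hold matches nearer the end of the stop codon than Timp2, 34 bases after it and 78 bases before it. The density of GGACT was 0.809 per kilobase in Timp2 and 0.975 in Mmp2, against a median of 1.04 (quartiles 0.639 and 1.50) over 7940 protein-coding genes tested, of which 92.6% hold at least 1 match. Mmp14 had 5 matches in 2596 bases, a density of 1.93 that 12.4% of those genes reached, and Mmp19 had 6 in 3402 bases (1.76 per kilobase). In this one spelling of the motif, Timp2 was therefore below the median of the genes tested and Mmp14 and Mmp19 were above it.

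The knockdown was visible in the targeted transcript. Mettl3 measured 3.68, 3.85 and 3.90 FPKM in knockdown replicates 1 to 3, against 5.87, 6.34 and 5.75 FPKM in control replicates 1 to 3. No gene of 8047 tested passed an adjusted p of 0.05 between the groups (limma with Benjamini-Hochberg adjustment; 0%), and 366 genes (4.55%) had an unadjusted p below 0.05. The first principal component (44.3% of the variance) set replicate 3 of each group apart from the 4 remaining libraries, and its library codes in the titles have another form; results on the members are therefore also given within replicates. Of 20 podocyte markers 9 had values, summing to between 243 and 254 FPKM in knockdown and between 248 and 272 in control libraries; nephrin (Nphs1) was not among the 9. Among them, Vegfa measured 48.2, 48.2 and 52.1 FPKM in knockdown replicates 1 to 3, against 64.1, 66.9 and 60.0 FPKM in control replicates 1 to 3, lower without overlap. Dach1 measured 4.38, 3.65 and 6.14 FPKM in knockdown replicates 1 to 3, against 2.59, 3.37 and 3.34 FPKM in control replicates 1 to 3, higher without overlap. The groups overlapped in the 5 remaining podocyte markers that were tested. Over all 8047 genes tested, 4.01% were lower and 6.06% higher without overlap. Wt1, a defining podocyte transcription factor gene, was below 1 FPKM in every library. Mesangial and fibroblast markers had values for 11 of 16 genes, summing to between 6909 and 10060 FPKM in knockdown and between 6551 and 9783 in control libraries, with the highest sum of each group in replicate 3. Endothelial, tubule and immune markers had values for 3 of 11, 1 of 13 and 1 of 13 genes. The part of these marker levels in the results on TIMPs and MMPs was not tested. In bulk RNA, fewer cells expressing a transcript and less transcript per cell cannot be told apart.

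Timp2 was by far the more abundant inhibitor transcript and Mmp2 the most abundant protease transcript of the set. Over the 6 libraries the levels ran in the order Timp2 (275 to 327 FPKM), Mmp2 (105 to 144), Mmp14 (76.4 to 87.6), Timp1 (12.4 to 16.0 in the 5 libraries above 0) and Mmp19 (2.48 to 3.44 in the 3 libraries above 0). The ranges of neighbours in this order did not overlap, apart from Timp1 and Mmp19, which were both listed at 0 in some library. In every library, Timp2 ranked between 57 and 66 among the 9120 genes listed, Mmp2 between 175 and 258 and Mmp14 between 331 and 399.

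**Figure D1:**
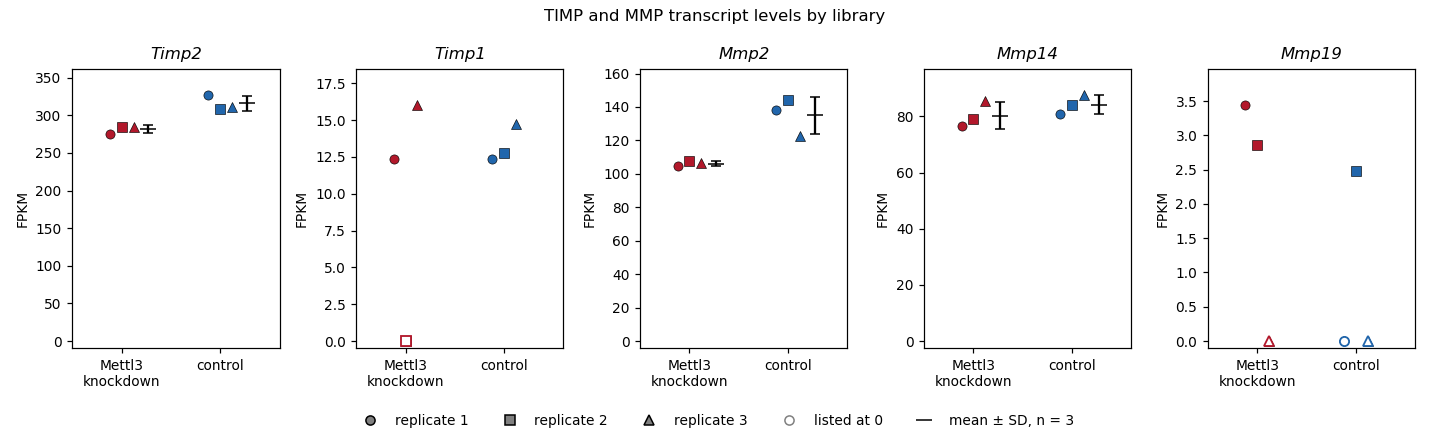
FPKM of the 5 measured members in each library, with Mettl3 knockdown left of control and 1 symbol per replicate number; open symbols are values listed at 0, and bars are mean ± SD (n = 3), left out where a library is at 0. Timp2 and Mmp2 sit lower in the 3 knockdown libraries than in the 3 control libraries, Mmp14 overlaps, and Timp1 and Mmp19 hold values of 0.

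Timp2 (ENSMUSG00000017466.9; GRCm38 chromosome 11, 118301069 to 118355740, minus strand, 2 annotated transcripts) measured 275, 284 and 285 FPKM in knockdown replicates 1 to 3, against 327, 309 and 312 FPKM in control replicates 1 to 3. Every knockdown library was below every control library. The means were 282 ± 5.3 FPKM in knockdown and 316 ± 9.6 FPKM in control (SD, n = 3 each), a fold of 0.892 on the FPKM + 1 scale with a 95% interval of 0.797 to 0.998 (limma, not adjusted for the number of genes). The log2 fold change was -0.16 (SE 0.07), which did not pass over all genes (limma adjusted p = 0.998; unadjusted p = 0.0469). The exact two-sided permutation test gave p = 0.1, which is the minimum for 3 libraries against 3. Of the FPKM summed over the genes listed, Timp2 made up 0.156%, 0.163% and 0.161% in knockdown libraries 1 to 3. In control libraries 1 to 3 it made up 0.188%, 0.175% and 0.178%.

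The Timp2 difference was present within each replicate number, at -15.7%, -7.93% and -8.67% in pairs 1, 2 and 3. Timp2 did not differ detectably between replicate 3 and the other 4 libraries (log2 difference -0.00, SE 0.05; limma adjusted p = 0.979), a contrast in which 18.8% of genes passed. With quantile normalization its log2 fold change was -0.10 (SE 0.06). The gene model Cep295nl lies within the Timp2 span on the same strand without sharing an exon. Cep295nl was listed at 1.77, 1.76 and 1.45 FPKM in knockdown replicates 1 to 3, against 2.54, 0.485 and 2.47 FPKM in control replicates 1 to 3, far below Timp2.

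Timp1, which encodes a soluble TIMP (ENSMUSG00000001131.11; chromosome X, 20870166 to 20874735, plus strand, within the span of Syn1 on the other strand), was listed at 12.4, 0 and 16.0 FPKM in knockdown replicates 1 to 3, against 12.4, 12.8 and 14.7 FPKM in control replicates 1 to 3. Apart from the 0 in knockdown replicate 2, the groups overlapped. That 0 may be a failed estimate: Rps15 and Atp5e, which every cell uses, were also at 0 in 5 of the 6 libraries. Only 2 of 9120 genes, Timp1 and the glutathione transferase gene Gstp1, were at 0 in exactly 1 library with more than 10 FPKM in each of the other 5. The log2 fold change was -1.22 (SE 1.00, limma adjusted p = 0.998) with the 0 kept and 0.08 (SE 0.15, limma adjusted p = 0.998) with it set to missing, so the direction of the Timp1 estimate rested on that library.

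Mmp2 (ENSMUSG00000031740.8; chromosome 8, 92827291 to 92853420, plus strand, 4 annotated transcripts) showed the largest difference among the 3 members with values above 0 in every library. It measured 105, 108 and 106 FPKM in knockdown replicates 1 to 3, against 138, 144 and 123 FPKM in control replicates 1 to 3. The groups did not overlap, and the 3 knockdown libraries lay closer together than the 3 control libraries. The means were 106 ± 1.5 FPKM in knockdown and 135 ± 11 FPKM in control (SD, n = 3 each), a fold of 0.789 with a 95% interval of 0.688 to 0.906 (limma, not adjusted for the number of genes). The log2 fold change of -0.34 (SE 0.08) did not pass over all genes (limma adjusted p = 0.998; unadjusted p = 0.00476), and the exact two-sided permutation p was 0.1, again the smallest possible. Within replicate numbers 1, 2 and 3 the difference was -24.4%, -25.3% and -13.5%. Control replicate 3 was the lowest control, and in the 4 libraries whose title codes begin with HG (replicates 1 and 2) the log2 fold change was -0.41 (SE 0.05, limma adjusted p = 0.130).

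Mmp14 (ENSMUSG00000000957.11; chromosome 14, 54431612 to 54445364, plus strand, 7 annotated transcripts), the membrane protease that activates pro-MMP2, measured 76.4, 78.9 and 85.5 FPKM in knockdown replicates 1 to 3, against 80.9, 84.0 and 87.6 FPKM in control replicates 1 to 3. The groups overlapped, and replicate 3 was the highest library of each. The means were 80.3 ± 4.7 FPKM in knockdown and 84.1 ± 3.4 FPKM in control (SD, n = 3 each), a fold of 0.954 with a 95% interval of 0.838 to 1.09. The log2 fold change was -0.07 (SE 0.08, limma adjusted p = 0.998) and the exact two-sided permutation p was 0.3. Within replicate numbers 1, 2 and 3 knockdown differed from control by -5.46%, -6.02% and -2.43%. Timp2, Mmp2 and Mmp14 were thus lower in knockdown in all 3 same-numbered pairs, as were 15.3% of the genes tested. In a fit blocked on replicate number, the 3 log2 fold changes kept their values, and the limma adjusted p-values were 0.362 for Timp2, 0.266 for Mmp2 and 0.635 for Mmp14; 10.8% of genes then had an unadjusted p below 0.05.

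Mmp19, a secreted MMP (ENSMUSG00000025355.7; chromosome 10, 128790910 to 128800824, plus strand), was listed at 3.44, 2.86 and 0 FPKM in knockdown replicates 1 to 3, against 0, 2.48 and 0 FPKM in control replicates 1 to 3. It was at 0 in replicate 3 of both groups and in control replicate 1, and each 0 may be a failed estimate. Mmp19 shares exon sequence with Tmem198b and Gm47093, both annotated on the opposite strand, and how strand was treated in assigning reads is not stated in the labels or the file. Its log2 fold change was 0.77 (SE 0.70, limma adjusted p = 0.998), and 0.25 (SE 0.21) with zeros set to missing, where 1 control library remained.

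The groups did not overlap in 2 of the 5 members, Timp2 and Mmp2, both lower in knockdown. Over all 8047 genes tested, 4.01% were lower without overlap and 6.06% higher; the members were chosen with earlier results of these libraries known, so the share among them is a description.

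Inhibitor and protease transcripts were then set against each other within each library, as ratios of FPKM, which are per length. The ratio of Timp2 to Mmp2 was 2.63, 2.64 and 2.68 in knockdown replicates 1 to 3, against 2.36, 2.14 and 2.54 in control replicates 1 to 3. Every knockdown library had more Timp2 per Mmp2 transcript than any control, with means of 2.65 ± 0.02 in knockdown and 2.35 ± 0.20 in control (SD, n = 3 each). Timp2 itself was lower in the knockdown libraries, but less so than Mmp2.

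The ratio of Timp2 to Mmp14, the pair that forms the docking complex for pro-MMP2, was 3.60, 3.60 and 3.33 in knockdown replicates 1 to 3, against 4.04, 3.68 and 3.56 in control replicates 1 to 3. Its means were 3.51 ± 0.16 in knockdown and 3.76 ± 0.25 in control (SD, n = 3 each), and the groups overlapped. The ratio of Mmp2 to Mmp14 was 1.37, 1.36 and 1.24 in knockdown replicates 1 to 3, against 1.71, 1.72 and 1.40 in control replicates 1 to 3. It did not overlap between the groups, with replicate 3 the lowest library of each.

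Summed over the measured members, TIMP transcripts amounted to 288, 284 and 301 FPKM in knockdown replicates 1 to 3, against 339, 322 and 326 FPKM in control replicates 1 to 3. MMP transcripts amounted to 184, 189 and 192 FPKM in knockdown replicates 1 to 3, against 219, 231 and 210 FPKM in control replicates 1 to 3. Both sums were lower in every knockdown library than in any control. Their ratio was 1.56, 1.50 and 1.57 in knockdown replicates 1 to 3, against 1.55, 1.40 and 1.55 in control replicates 1 to 3. The overlap between the groups rested on knockdown replicate 2, the library with Timp1 listed at 0; knockdown replicates 1 and 3 lay above all controls. With Timp1 and Mmp19, the members with zeros, left out of every library, the ratio of Timp2 to Mmp2 plus Mmp14 was 1.52, 1.52 and 1.485 in knockdown replicates 1 to 3, against 1.4915, 1.35 and 1.48 in control replicates 1 to 3, and the groups overlapped there too. Timp2 contributed between 94.7% and 96.4% of the TIMP sum in the 5 libraries with Timp1 above 0. Mmp2 contributed 56.7%, 56.8% and 55.4% of the MMP sum in knockdown replicates 1 to 3, against 63.1%, 62.5% and 58.4% in control replicates 1 to 3. These are transcript ratios without Timp3, and protein levels and enzyme activity were not measured.

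**Figure D2:**
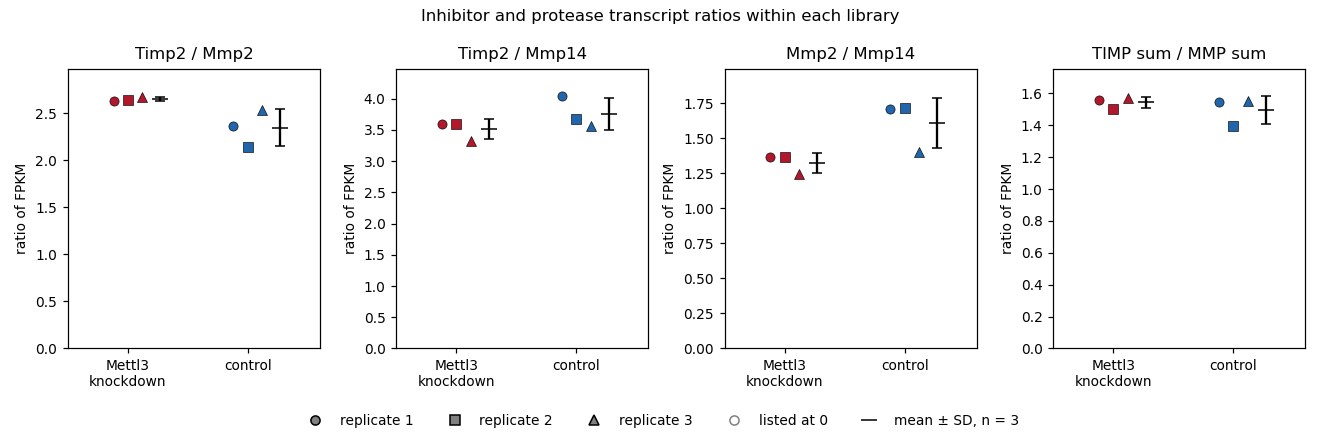
Ratios of FPKM within each library (Timp2 to Mmp2, Timp2 to Mmp14, Mmp2 to Mmp14, and the TIMP sum to the MMP sum), with Mettl3 knockdown left of control, 1 symbol per replicate number and mean ± SD (n = 3). Timp2 to Mmp2 is higher in all 3 knockdown libraries (2.63 to 2.68) than in the controls (2.14 to 2.54), while the ratio of the sums overlaps through knockdown replicate 2 (1.50), where Timp1 is listed at 0.

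In the wider family few genes had values. Of 28 TIMP, MMP and Reck genes listed, 9 were in the table and 7 were tested; 0 passed over all genes in either direction by limma, 3 had a log2 fold change above 0 and 4 below, and 2, Timp2 and Mmp2, had an unadjusted p below 0.05, as did 4.55% of all genes tested. The median log2 fold change of these 7 was -0.07, against 0.02 over all genes tested. Reck, a membrane-anchored MMP inhibitor gene, measured 15.3, 13.4 and 13.5 FPKM in knockdown replicates 1 to 3, against 12.7, 13.1 and 13.7 FPKM in control replicates 1 to 3. Mmp16, which encodes another membrane-type MMP, measured 14.7, 12.1 and 10.2 FPKM in knockdown replicates 1 to 3, against 12.7, 12.4 and 9.56 FPKM in control replicates 1 to 3. Both overlapped between the groups, and Reck and Mmp16 were about as abundant as Timp1. Mmp11 and the collagenase gene Mmp13 stayed below the filter, at no more than 1.05 and 1.44 FPKM in any library.

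Of 13 ADAM and ADAMTS metalloproteinase genes tested, 0 passed by limma, 6 had a log2 fold change above 0 and 7 below, and the median was -0.03. By unadjusted p the first was Adam12, a disintegrin metalloproteinase gene, at 26.3, 27.6 and 26.2 FPKM in knockdown replicates 1 to 3, against 30.8, 30.7 and 31.7 FPKM in control replicates 1 to 3, without overlap (log2 fold change -0.21, SE 0.07, limma adjusted p = 0.998). Next came Adamts8. It measured 7.25, 7.49 and 4.20 FPKM in knockdown replicates 1 to 3, against 9.97, 10.6 and 5.67 FPKM in control replicates 1 to 3. Adam19 followed, at 17.9 ± 0.19 FPKM in knockdown and 16.7 ± 0.90 in control (SD, n = 3 each). After it came Adam17, the TNF-alpha sheddase gene, at 7.29 ± 0.15 FPKM in knockdown and 8.28 ± 1.4 in control. Adam12 and Adam19 were the genes of this list without overlap between groups, Adam12 lower and Adam19 higher in knockdown. The groups overlapped in 84.6% of the list, against 89.9% of all genes tested.

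**Figure D3:**
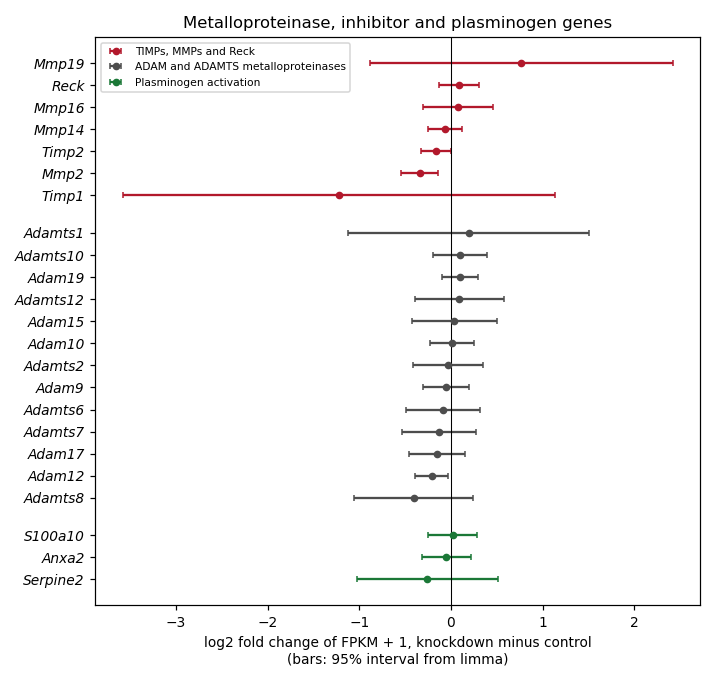
Log2 fold change of FPKM + 1, knockdown minus control, with 95% intervals from limma, for the tested TIMP, MMP and Reck genes, ADAM and ADAMTS genes and plasminogen activation genes. Mmp2, Timp2 and Adam12 have intervals below 0 before adjustment, Timp1 and Mmp19 have the widest intervals among the TIMPs and MMPs, and no gene passed after adjustment over all genes.

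A further list held activators, surface partners and clearance receptors, Timp2 and Mmp14 included, and membrane trafficking genes (Rab8a, Vamp7 and Snap23). Of its 19 tested genes, 0 passed by limma. Log2 fold changes were above 0 for 8 and below for 11 (median -0.04). The groups overlapped in 16 of the 19 genes (84.2%), against 89.9% of all genes tested. Without overlap, Timp2 was lower and the trafficking genes Snap23 and Vamp7 were higher in knockdown. Vamp7 measured 7.14, 7.31 and 6.90 FPKM in knockdown replicates 1 to 3, against 6.87, 6.49 and 6.32 FPKM in control replicates 1 to 3. Snap23, a membrane fusion gene of the SNARE family, had the smallest unadjusted p of the list, at 16.4, 18.7 and 15.9 FPKM in knockdown replicates 1 to 3, against 9.02, 10.5 and 11.5 FPKM in control replicates 1 to 3 (log2 fold change 0.67, SE 0.12, limma adjusted p = 0.799). Cd151, a tetraspanin gene, measured 29.2 ± 2.6 FPKM in knockdown and 33.2 ± 1.9 in control, and Furin, whose product cleaves pro-MMP14, 10.9 ± 0.57 FPKM in knockdown and 11.8 ± 0.79 in control (SD, n = 3 each). Lrp1, an endocytic receptor that clears MMP2 and TIMP complexes, measured 126 ± 4.3 FPKM in knockdown and 131 ± 4.4 in control. Thbs1, a gene of this list whose product binds MMP2, was at 1025 FPKM in knockdown replicate 3 and 998 in control replicate 3, and at 693 to 761 elsewhere. Of the plasminogen system, 3 of 10 genes were tested and 0 passed: Serpine2, Anxa2 and S100a10, with log2 fold changes of -0.26, -0.05 and 0.02.

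Of 17 tested substrate genes of MMP2 and MMP14 (collagens, laminins and other matrix proteins), 0 passed by limma, 9 had a positive and 8 a negative log2 fold change (median 0.08). Dag1 was counted as positive through control replicate 1 alone, whose low value may be a failed estimate. It measured 84.4, 80.5 and 98.7 FPKM in knockdown replicates 1 to 3, against 11.8, 95.2 and 99.5 FPKM in control replicates 1 to 3. Lamb1, a laminin chain gene, had the smallest unadjusted p, at 7.36 ± 0.90 FPKM in knockdown and 9.42 ± 1.3 in control, followed by Tnc at 44.9 ± 3.6 in knockdown and 49.6 ± 1.1 in control (SD, n = 3 each). Hspg2 measured 26.0, 26.8 and 38.6 FPKM in knockdown replicates 1 to 3, against 30.2, 34.0 and 46.0 FPKM in control replicates 1 to 3. Nid1 measured 35.9, 38.5 and 58.8 FPKM in knockdown replicates 1 to 3, against 28.5, 30.2 and 48.1 FPKM in control replicates 1 to 3. Both were highest in replicate 3 of each group. Tnc, a matricellular glycoprotein gene, was the one substrate gene tested without overlap, lower in knockdown. The groups overlapped in 94.1% of the substrate genes, against 89.9% of all genes tested. Of 19 tested transcription factor genes known to act on TIMP or MMP promoters, 0 passed, 10 were above 0 and 9 below. The smallest unadjusted p-values there belonged to the AP-1 subunit gene Fosl1 (6.23 ± 0.82 FPKM in knockdown and 9.02 ± 2.1 in control), to Egr1 (6.42 ± 1.6 in knockdown and 10.6 ± 3.5 in control), to Jun (53.0 ± 3.8 in knockdown and 61.6 ± 6.8 in control) and to Ets2 (1.56 ± 0.25 in knockdown and 2.00 ± 0.17 in control; SD, n = 3 each). By library, Egr1 was at 7.24, 7.39 and 4.62 FPKM in knockdown replicates 1 to 3, against 12.2, 13.1 and 6.56 FPKM in control replicates 1 to 3. In this list Fosl1 and Ets2 were lower and Sp1 was higher in knockdown without overlap, against 4.01% lower and 6.06% higher over all genes tested. Sp1, a zinc finger factor gene, measured 12.9, 12.8 and 12.8 FPKM in knockdown replicates 1 to 3, against 5.21, 11.7 and 11.6 FPKM in control replicates 1 to 3.

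Timp2 and Mmp2 varied together over the 6 libraries, with a Pearson correlation of 0.896 on the log2 scale (n = 6, a description, since both differed between the groups). Mmp14 correlated with Timp2 at 0.462 and with Mmp2 at 0.351. Among tested genes with a mean of at least 5 FPKM, the patterns most like that of Timp2 belonged to Faf1 (r = 0.983), the transcription factor gene Nfic and the tetraspanin gene Tspan6 (r = 0.973). Nfic measured 10.5, 12.9 and 12.9 FPKM in knockdown replicates 1 to 3, against 17.7, 15.7 and 15.8 FPKM in control replicates 1 to 3. The patterns most like that of Mmp2 belonged to Aebp1, which encodes a secreted collagen-binding protein (r = 0.996), the small GTPase gene Rab31 (r = 0.991) and the kinase gene Aak1 (r = 0.990). Aebp1 measured 67.8, 68.5 and 67.9 FPKM in knockdown replicates 1 to 3, against 78.4, 81.7 and 73.2 FPKM in control replicates 1 to 3. As for Mmp2, the knockdown libraries of Aebp1 were nearly level and control replicate 3 was the lowest control. This likeness follows from picking Aebp1 by its correlation over the same 6 libraries. Whether any of these genes are regulated together was not tested.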

How the data were processed

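The authors deposited gene-level FPKM (per the file headers). StringTie 1.2.2, HISAT2 2.0.4, cutadapt 1.17, FastQC 0.11.7, R 2.10.0 and build mm9 appear in the submitters' processing notes, without a stated role. Of 9120 genes, 9112 matched GENCODE M21 and 8379 had its exact GRCm38 span, all measured members included, so coordinates are GRCm38. Whole reads were not recovered: at most 22.0% of the 150 lowest values per library came out whole within 0.05 of a read, where 10% is chance for 1 trial step. The FPKM sum per library ranged from 173721 to 176526, and 74 to 118 genes per library were at 0.

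Groups and replicate numbers come from the titles, and the series' design text calls replicates biological. In the titles the library code of knockdown replicate 2 is that of knockdown replicate 1 with a suffix, whose meaning is not stated. Genes with at least 1 FPKM in 3 libraries (8047) were fitted as log2(FPKM + 1) in limma 3.58.1 (R 4.3.3; intensity trend, two-sided, knockdown minus control) with Benjamini-Hochberg adjustment at 0.05. Fold changes on this scale understate low genes. The fit was tested on simulated data with independent noise and added changes larger than those estimated for Timp2, Mmp2 and Mmp14. That simulation therefore gives no detection rate for changes of their size. The members and gene lists were chosen with earlier results of these data known. Genes outside the members were named by the 4 smallest unadjusted p-values per list, by correlation with Timp2 or Mmp2, or after their values were seen. The last were Reck, Mmp16, Mmp11, Mmp13, Lrp1, Thbs1, Vamp7, Dag1, Sp1, Vegfa, Dach1, Wt1, Cep295nl, Rps15, Atp5e and Gstp1. Libraries of the same number correlated in their deviations at 0.231, 0.196 and 0.558 (numbers 1, 2 and 3), so the block was run; crossed libraries 1 and 2 correlated as highly (0.257 and 0.226). Alternatives were another pseudocount (0.1), filter (none or 5 FPKM) and scaling, zeros as missing, the block, a covariate for the form of the library code, the 4 HG-coded libraries, array weights and each library left out; settings on the zeros of Timp1 and Mmp19 in the ratios were added after the values were seen.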

Additional observations from a re-analysis of the deposited data

How the results depend on the processing

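Timp2, Mmp2 and Mmp14 kept a log2 fold change below 0 and an adjusted p above 0.05 (limma) under all 16 alternatives. Their values ranged from -0.19 to -0.10 for Timp2, from -0.41 to -0.29 for Mmp2 and from -0.11 to -0.03 for Mmp14; the Mmp14 value was -0.11 without knockdown replicate 3, -0.03 without knockdown replicate 1 and -0.04 without control replicate 3. The smallest adjusted p over the alternatives was 0.237 for Timp2, 0.130 for Mmp2 and 0.597 for Mmp14. With the replicate block the log2 fold changes were the same and their SE was 0.05 for Timp2, 0.06 for Mmp2 and 0.05 for Mmp14. The block changed no call, and the number of genes with an unadjusted p below 0.05 was 872, against 366 without it. Timp1 reversed to 0.0834 with zeros set to missing and to 0.0834 without knockdown replicate 2, the library listed at 0. Leaving out each library gave Timp1 between -1.96 and 0.0834. Mmp19 stayed above 0, between 0.25 and 1.78 over 15 alternatives; the filter at 5 FPKM removed it. The count of genes past the threshold was 2 in the HG-coded libraries alone and between 0 and 2 without each library (2 without knockdown replicate 3 and 2 without control replicate 2, 0 otherwise), and no member was among them. The difference in the ratio of Timp2 to Mmp2, knockdown minus control, was 0.30 and ranged from 0.20 to 0.40 without each library. For Timp2 to Mmp14 it ranged from -0.35 to -0.11, for Mmp2 to Mmp14 from -0.39 to -0.23, and for the TIMP sum to the MMP sum from -0.0059 (without control replicate 2, with the listed 0 of Timp1 kept) to 0.072; it was 0.066 without knockdown replicate 2. The next settings were chosen after seeing the data. With Timp1 and Mmp19 left out, the difference was 0.068 and ranged from 0.024 to 0.093 without each library. With the 0 of Timp1 replaced by its lowest level in the other libraries, an imputed value, while the zeros of Mmp19 were kept, it was 0.067 (0.0159 to 0.0938 without each library), and the groups then did not overlap. Depth is unknown, so no counting interval can be given for the low values of Timp1 and Mmp19.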
